A study of Mus musculus with 6 samples.

Results

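E2F transcription factors bind DNA as pairs with a DP protein, and the pocket proteins of the retinoblastoma family bind these pairs and hold E2F target genes silent until cyclin-dependent kinases phosphorylate them. The 9 genes described here are the DP partners Tfdp1 and Tfdp2, the E2F factors E2f1, E2f2, E2f3 and E2f4, and the pocket protein genes Rb1, Rbl1 and Rbl2, which encode RB, p107 and p130. E2F1, E2F2 and E2F3 are known mainly as activators of genes for entry into S phase, and E2F4 mainly as a repressor that works with p107 and p130. In resting T cells, p130 with E2F4 is the best known complex of this kind, and it is replaced as cells are stimulated to divide.

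The 9 genes were taken by symbol from a table of 56246 genes, of which the 11001 with a symbol and at least 100 normalized counts on average in 1 of the groups were tested. By symbol they also held 100 of the 65785 splicing events listed. They were chosen by a measured value, since Tfdp2 entered for its lower exon inclusion in these same libraries, and the other 8 followed from their known link to it. The values of Tfdp2 are therefore given as a description, without a test.

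The libraries came from sorted CD4+CD8- T cells, pooled from spleen and peripheral lymph nodes of male mice aged 8 to 12 weeks. In the cKO mice (U5-52K f/f CD4-Cretg, 3 libraries, KO_7.8, then KO_9.10, then KO_11.12), Cre under the CD4 promoter removes CD2BP2/U5-52K, an assembly factor of the U5 particle of the spliceosome, from the double-positive stage in the thymus onward. The Control group held 2 libraries of U5-52K wt/f CD4-Cretg mice (CTRL_1.2, then CTRL_3.4) and, last, 1 of the U5-52K f/f CD4-Cre- genotype (CTRL_5.6), so the Control libraries share neither the Cre nor the allele. Gene values given library by library follow this order in each group. Cd2bp2, the targeted gene, averaged 832 ± 81.4 normalized counts in cKO and 2613 ± 10.6 in Control (SD, n = 3 each).

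Reads in genes numbered 69981159 to 82286366 per library in cKO and 56995121 to 75606222 in Control. Cd4 averaged 57110 ± 2727 normalized counts in cKO and 59284 ± 3072 in Control (SD, n = 3 each), and no gene of the marker lists for T, CD8 T, B, myeloid, erythroid and NK cells passed the test across genes by limma, where 8 had an unadjusted p under 0.05. edgeR also gave 0, and DESeq2 gave Cd3e, Cd79a and Pax5 lower and Ncr1 higher in cKO. Of the 8, 4 were among the 6 tested B cell markers, 2 were T cell, 1 was a myeloid and 1 an NK cell gene. Over all tested genes, 9.25% had an unadjusted p under 0.05 by limma and were higher in cKO, and 7.44% were lower. The 11 myeloid markers summed to 19363 normalized counts in KO_7.8, against 3906 and 5000 in the other cKO libraries and 2406 to 4670 in Control. The 6 B cell markers used from the table summed to 4032 to 7589 in cKO and 8197 to 11029 in Control. Apart from a second identifier of Cd28, none of the marker genes was at 0 in all libraries. The part of these cells in the values below was not tested, and in such bulk samples fewer cells of a type and less RNA per cell cannot be told apart.

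Tfdp2 (ENSMUSG00000032411, chr9:96196275-96323646 on GRCm38, plus strand) encodes the second of the DP proteins and has 16 annotated transcripts, 13 of them coding. Tfdp2 had 1802, 2225 and 1987 normalized counts in cKO, against 2048, 2318 and 1487 in Control. The groups overlapped, and the lowest and the highest value both belonged to Control. The log2 fold change was 0.06 on the log2(normalized count + 1) scale, and it was -0.13 without CTRL_5.6 and 0.13 without KO_7.8.

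Inclusion of some Tfdp2 exons, in contrast, did not overlap between the groups in at least 1 event, with lower values in cKO at most of them. At the exon ending at 96273942, the event without overlap was higher in cKO, while its other tested events were lower with overlap. How many events of all genes separate the groups in this way was not counted. Exon inclusion is the share of an exon's transcripts that hold it, estimated from reads across its junctions and body against reads that skip it, and corrected for the length each form offers. The deposited splicing tables give 3 values per group with no library name, so the order within a group cannot be matched to the libraries. Of the 35 cassette-exon events listed for Tfdp2, 25 reached 20 reads on average in each group. They cover 10 exon forms, and they are not independent, since several describe the same exon between other neighbours.

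The 67-base exon at chr9:96232682-96232748, read between the exon ending at 96223198 and the one starting at 96273839, had an inclusion of 40.2%, 60.0% and 54.0% in cKO, against 79.3%, 85.4% and 88.7% in Control. Every cKO value lay below every Control value. Reads across the skipping junction numbered 42, 40 and 37 in cKO, against 13, 13 and 5 in Control, and reads for inclusion 41, 87 and 63 in cKO, against 72, 110 and 57 in Control. The means were 51.4% ± 10.1 in cKO and 84.4% ± 4.80 in Control (SD, n = 3 each), a difference of -33.03 points. The exon is present in 4 annotated transcripts. It is wholly coding in 1 of the 3 coding ones and lies before the start codon in the other 2, and its length leaves a remainder of 1 when divided into codons.

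The same exon read from the 58-base exon further upstream, which skips the 105-base exon in between, had an inclusion of 81.4%, 84.7% and 68.6% in cKO, against 100% in each Control value. This skipping junction was seen in 3, 5 and 12 reads in cKO and in 0, 0 and 0 reads in Control, beside 100 inclusion reads over the 3 Control values. A count of 0 allows up to 3 reads. The 105-base exon at chr9:96223094-96223198 itself, between the 58-base exon and the exon starting at 96273839, was included at 90.8% ± 6.02 in cKO and 100% in all Control values (SD, n = 3 each). These last events use the same skipping junction and so the same skipping reads, and all of the skipping junctions above end at the exon start at 96273839. The other 4 events of the 67-base exon, read between other neighbours, lay at 94.3% to 98.1% in cKO and at 95.8% to 100% in Control, with differences of -5.71, -4.83, -1.98 and 2.32 points.

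A further difference lay in the coding part, at the 48-base exon at chr9:96290580-96290627. This exon encodes most of the stretch known in mouse work on this protein, there called DP-3, as the alternatively spliced E region, which contributes to a nuclear localization signal ahead of the DNA-binding domain. It spans 16 codons, so that both forms keep the reading frame, and it is wholly coding in all 7 annotated transcripts that hold it. Of the annotated transcripts, 6 hold the exon with both neighbours shown here and 2 join the neighbours directly. The 2 forms are printed from the transcript sequences of GENCODE M21 (GRCm38, plus strand, chr9:96287693-96294994 with introns removed), with 30 bases of each neighbour in lower case and the 48-base exon in capitals, because they show what is lost in the skipped form.
Tfdp2 inclusion form: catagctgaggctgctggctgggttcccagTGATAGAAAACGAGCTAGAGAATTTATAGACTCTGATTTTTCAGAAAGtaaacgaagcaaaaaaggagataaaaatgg
Tfdp2 skipping form: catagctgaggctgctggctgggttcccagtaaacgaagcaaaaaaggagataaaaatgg

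Inclusion of the 48-base exon was 60.2%, 69.0% and 64.9% in cKO, against 80.0%, 79.1% and 89.9% in Control. The groups did not overlap. The skipping junction, which joins the 2 lower-case flanks printed above, was read 22, 32 and 34 times in cKO, against 14, 19 and 4 times in Control. The means were 64.7% ± 4.38 in cKO and 83.0% ± 5.99 in Control (SD, n = 3 each), a difference of -18.31 points that ranged from -20.45 to -14.86 with any 1 value left out.

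**Figure D1:**
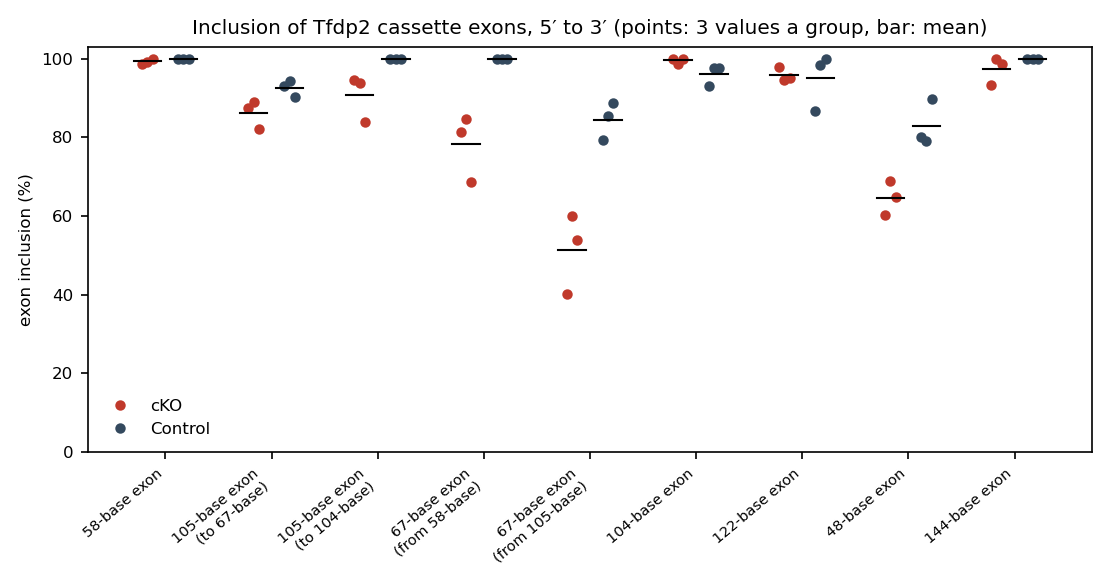
Exon inclusion in percent (y axis) of Tfdp2 cassette exons ordered from 5′ to 3′ (x axis), with the 3 values of cKO left of the 3 of Control and a bar at each mean. The 67-base exon read from the 105-base exon averages 51.4% in cKO and 84.4% in Control, and the 48-base exon 64.7% in cKO and 83.0% in Control.

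Most other exons of Tfdp2 stood close to full inclusion in both groups. The 58-base exon, read between the first exon and the 105-base exon, averaged 99.3% ± 0.633 in cKO and was at 100% in all Control values, while its other 2 events differed by 0.998 and 2.24 points in the opposite direction. The exon ending at 96273942, read between the 67-base exon and the exon starting at 96287601, was higher in cKO without overlap. Its 104-base form averaged 99.6% ± 0.733 in cKO and 96.2% ± 2.76 in Control. Its 77-base form averaged 99.2% ± 1.45 in cKO and 91.4% ± 5.35 in Control (SD, n = 3 each). The 2 forms use the same skipping reads here, 1 over the cKO values and 7 over the Control values. The other 2 tested events of each form went the other way, with overlapping groups. They differed by -0.59 and -2.64 points for the 104-base form and by -1.19 and -3.08 points for the 77-base form. The 122-base coding exon just before the 48-base exon, in its event that joins to the exon after it, averaged 95.9% ± 1.79 in cKO and 95.01% ± 7.26 in Control (SD, n = 3 each). The 39-base exon at chr9:96247050-96247088 was the one exon mostly skipped, with 11.2% ± 10.1 in cKO and 15.9% ± 4.34 in Control. Over the 25 events the differences ran from -33.03 to 7.78 points, and 3 of them, 2 for the 67-base exon and 1 for the 48-base exon, reached 10 points in size. Of all 39173 cassette-exon events tested, 3.38% reached 10 points.

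A 3-base choice of splice site followed downstream, where the 147-base and 144-base forms of a later exon start 3 bases apart, at 96297624 and 96297627. The longer form made up 27.8%, 20.8% and 26.4% in cKO, against 30.6%, 30.9% and 15.5% in Control. The values of the groups overlapped.

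Mutually exclusive exon events compare 2 exons of which a transcript holds 1, and they draw on many of the same junction reads. Between the first exon and the exon starting at 96273839, the 105-base exon rather than the 67-base exon was used at 68.7%, 51.4% and 46.0% in cKO, against 19.002%, 17.5% and 19.1% in Control. Reads for the 105-base form numbered 31, 36 and 24 in cKO, against only 8, 10 and 5 in Control. Those for the 67-base form numbered 12, 29 and 24 in cKO, against 29, 40 and 18 in Control. The groups did not overlap, with a difference of 36.80 points. The 58-base rather than the 105-base exon was used at 67.6% ± 7.79 in cKO and 87.3% ± 1.21 in Control in the same interval (SD, n = 3 each), a difference of -19.68 points. Between the first exon and the 67-base exon, the same choice went the other way, also without overlap. There the 58-base exon was used at 69.3% ± 5.33 in cKO and 58.4% ± 3.45 in Control (SD, n = 3 each), a difference of 10.95 points. Of 24 such Tfdp2 events with enough reads, 8 reached 10 points in size, against 3.64% of all 9608 tested. These 8 share junction reads and belong to a gene chosen for its exon inclusion.

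Events of the other genes were called at an FDR under 0.01 and a difference of at least 10 points. Among all 39173 cassette-exon events tested, 0.406% were called with lower and 0.0893% with higher inclusion in cKO. Among 9608 mutually exclusive events tested, 0.135% were called lower and 0.114% higher.

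Tfdp1, on chr8:13338751-13378448, encodes the other DP protein and was the more abundant of the pair per length of exon. Tfdp1 had 2503, 2237 and 2450 normalized counts in cKO, against 2203, 2383 and 2243 in Control. The groups overlapped. The log2 fold change was 0.07 (SE 0.093, limma, adjusted p = 0.765), with a 95% interval from -0.15 to 0.29. Of the summed level of both DP genes per kb of exon, Tfdp2 took 18.0% ± 2.44 in cKO and 18.2% ± 2.99 in Control (SD, n = 3 each).

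No splicing event of Tfdp1 was called. Its 67-base exon at chr8:13357043-13357109, the same length as the Tfdp2 exon above, was included at 83.3%, 84.0% and 88.4% in cKO, against 82.0%, 96.5% and 92.7% in Control. These values overlapped, and the event was not called (quasi-binomial test over all cassette-exon events, adjusted p = 0.692). A 106-base exon at chr8:13370169-13370274 was included at 10.3% ± 3.07 in cKO and 5.602% ± 4.08 in Control (SD, n = 3 each), and its difference of 4.72 points did not pass either (adjusted p = 0.291 in that test across all events). Its 2 mutually exclusive events did not overlap between the groups, though neither was called. The share of all mutually exclusive events that separate the groups was not counted. The one with the most reads differed by 6.39 points (adjusted p = 0.543 in the same kind of test) and the other by 4.35 points (adjusted p = 0.754 in that test). Its 1 retained-intron event stood at 0.146% in cKO and 0.229% in Control, where 0.181% of all 2206 such events were called.

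Outside Tfdp2, the call rule marked 0 of the 34 events with enough reads, which came from 6 of the 8 other genes. At an unadjusted p under 0.05 there was 1 by the quasi-binomial test and 1 by limma on the logit scale. Over all genes, 3438 of 39173 cassette-exon and 1107 of 9608 mutually exclusive events were under 0.05 by the quasi-binomial test, and 3202 and 981 by limma. The median difference in size of the 34 events was 0.373 points and the largest was 6.39 points. The medians were 0.559 points over all cassette-exon events and 1.495 points over all mutually exclusive events. Rbl2 had 9 cassette-exon events, all within 0.229 points, and the one with the most reads included its exon at 99.8% ± 0.133 in cKO and at 100% in all Control values. Small as it was, this difference did not overlap between the groups, and the share of all cassette-exon events that do so was not counted. The 6 cassette-exon events of Rbl1 ran from -0.70 to 0.43 points, and its 1 mutually exclusive event differed by -4.54 points. Among alternative 3′ splice sites, 18 of 3081 events were called in all (0.584%), none of them in the 8 genes other than Tfdp2.

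**Figure D2:**
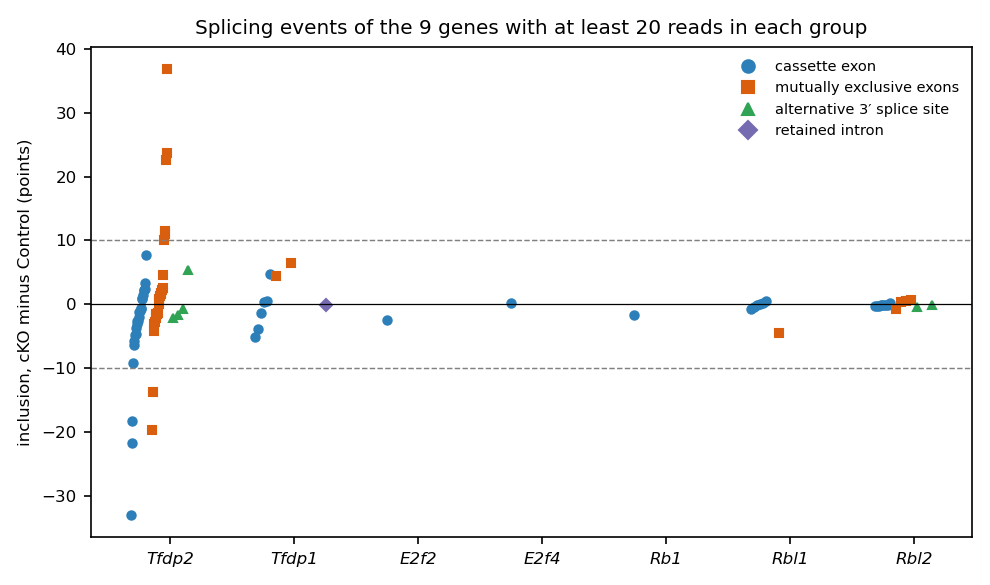
Difference in inclusion, cKO minus Control, in points (y axis) for each splicing event with at least 20 reads per group on average, by gene (x axis) and class of event (marker), with dashed lines at 10 points in either direction. The events of Tfdp2 reach from -33.0 to 36.8 points, while those of the other genes stay within 6.39 points.

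Among the pocket protein genes, Rbl2 and Rbl1 separated the groups, in opposite directions. Rbl2 (p130, chr8:91070057-91123844), the pocket protein typical of resting cells, had 25810, 30094 and 26743 normalized counts in cKO, against 19886, 20570 and 16263 in Control. Every cKO library lay above every Control library. The log2 fold change was 0.55 (SE 0.12, 95% interval 0.27 to 0.83), and the adjusted p across all genes was 0.1003 by limma and 0.00304 by DESeq2. Without KO_7.8 the log2 fold change was 0.59, and without CTRL_5.6 it was 0.44.

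Rbl1 (p107, chr2:157145893-157204534), the pocket protein that dividing cells are known to raise, was lower in every cKO library. It had 5609, 5462 and 5698 normalized counts in cKO, against 6881, 7278 and 7379 in Control. The groups did not overlap. The log2 fold change was -0.36 (SE 0.077, 95% interval -0.54 to -0.18), with an adjusted p of 0.0987 by limma and 6.3e-06 by DESeq2. It was -0.36 without KO_7.8 and -0.34 without CTRL_5.6.

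Rb1 (RB, chr14:73183673-73325822) showed no such gap. It had 1199, 1019 and 1117 normalized counts in cKO, against 1140, 1124 and 1225 in Control, and the log2 fold change was -0.07 (SE 0.11, limma, adjusted p = 0.829). The annotated exons of Rb1 share 896 bases with Lpar6 and Rcbtb2, and those of Rbl2 share 1585 bases with Aktip and Gm45464. The sources used here do not state whether counting used strand. Aktip itself averaged 2654 ± 120 normalized counts in cKO and 2740 ± 258 in Control (SD, n = 3 each).

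A ratio of 2 genes within a library does not depend on how libraries were scaled. The ratio of Rbl2 to Rbl1 counts was 4.60, 5.51 and 4.69 in cKO, against 2.89, 2.83 and 2.20 in Control. Per kb of exon, Rbl2 made up 76.5% ± 1.92 of the pocket protein mRNA in cKO and 64.1% ± 3.56 in Control (SD, n = 3 each). Rbl1 made up 19.6% ± 1.42 in cKO and 30.9% ± 2.98 in Control, and Rb1 the small rest. These shares did not overlap between the groups, and neither did the counts of Rbl2 and Rbl1 themselves. The counts of Rb1 did overlap, and its share also depends on those of the other genes. An exact permutation test, two-sided, gave p = 0.1 for each of the 3 shares, the smallest value that 3 libraries against 3 allow. The shares of a library are parts of one whole, so these are not 3 separate results, and they add nothing to the gap in the counts.

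**Figure D3:**
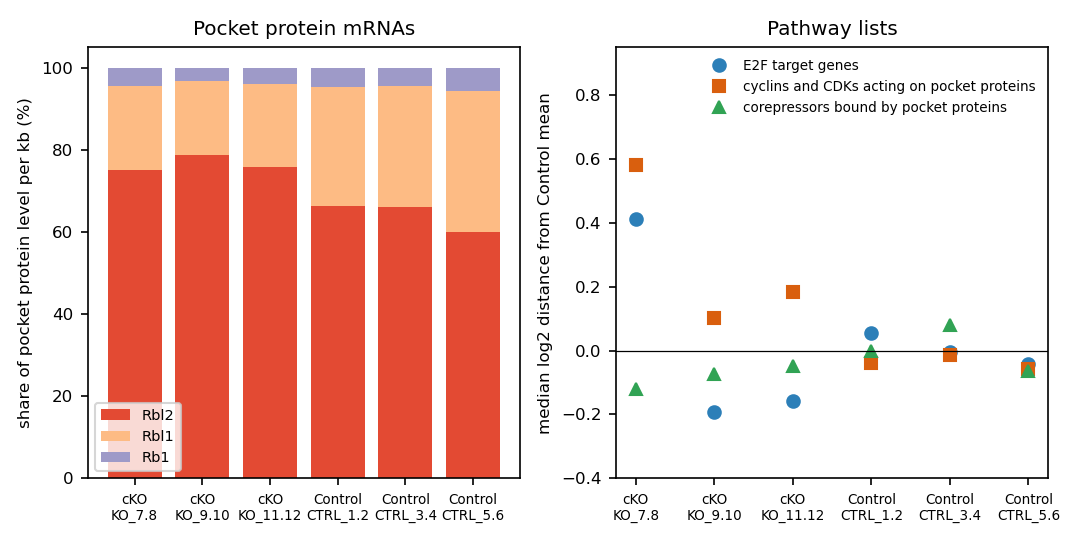
Left, share in percent of the summed level per kb of exon held by Rbl2, Rbl1 and Rb1 in each library (cKO libraries left, Control right), with Rbl2 between 75.05% and 78.7% in cKO and between 60.0% and 66.3% in Control. Right, median log2 distance of 3 gene lists from the Control mean in each library, where the E2F targets lie at 0.41 in KO_7.8 and at -0.19 and -0.16 in the other cKO libraries.

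Of the E2F factors, E2f2 separated the groups. E2f2, an activator that in mice also limits T cell proliferation, had 2610, 2456 and 2991 normalized counts in cKO, against 1985, 2274 and 2043 in Control. The log2 fold change was 0.35 (SE 0.11, 95% interval 0.08 to 0.62), with an adjusted p of 0.200 by limma, and it was 0.37 without KO_7.8.

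E2f1, the founding activator of the family, was the scarcest of the 9 genes. It had 256, 179 and 145 normalized counts in cKO, against 98.0, 142 and 174 in Control. The highest value was that of KO_7.8, the library with the high myeloid sum, and the log2 fold change was 0.49 (SE 0.32, limma, adjusted p = 0.504) with that library and 0.26 (SE 0.31, limma, adjusted p = 0.678) without it.

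E2f3, another activator, averaged 480 ± 89.4 normalized counts in cKO and 359 ± 99.9 in Control (SD, n = 3 each). Its log2 fold change was 0.44 (SE 0.26, limma, adjusted p = 0.463), and 0.18 without CTRL_5.6, which had the lowest value of the 6 libraries. E2f4, the repressor partner of p130, averaged 2748 ± 431 in cKO and 2333 ± 466 in Control, with overlapping groups and a log2 fold change of 0.24 (SE 0.19, limma, adjusted p = 0.572). Without CTRL_5.6 the log2 fold change of E2f4 was 0.07.

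Of the 8 genes other than Tfdp2, 0 passed an adjusted p under 0.05 by limma, where 0.673% of the 11001 genes passed higher and 0.3% lower in cKO, and 0.564% passed with an absolute log2 fold change above 1. At an unadjusted p under 0.05 there were 3 of 8, Rbl2 and E2f2 higher and Rbl1 lower, where 9.25% of all tested genes passed higher and 7.44% lower. edgeR on the whole reads recovered from the table gave 0 of 8, where 0.664% of all genes passed higher and 0.355% lower. DESeq2 gave 2, Rbl2 higher and Rbl1 lower, where 4.44% of all genes passed higher and 3.98% lower. In 2 of the 8 genes every cKO library lay above every Control library, against 12.6% of all tested genes, and in 1 every cKO library lay below, against 11.5% of all.

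**Figure D4:**
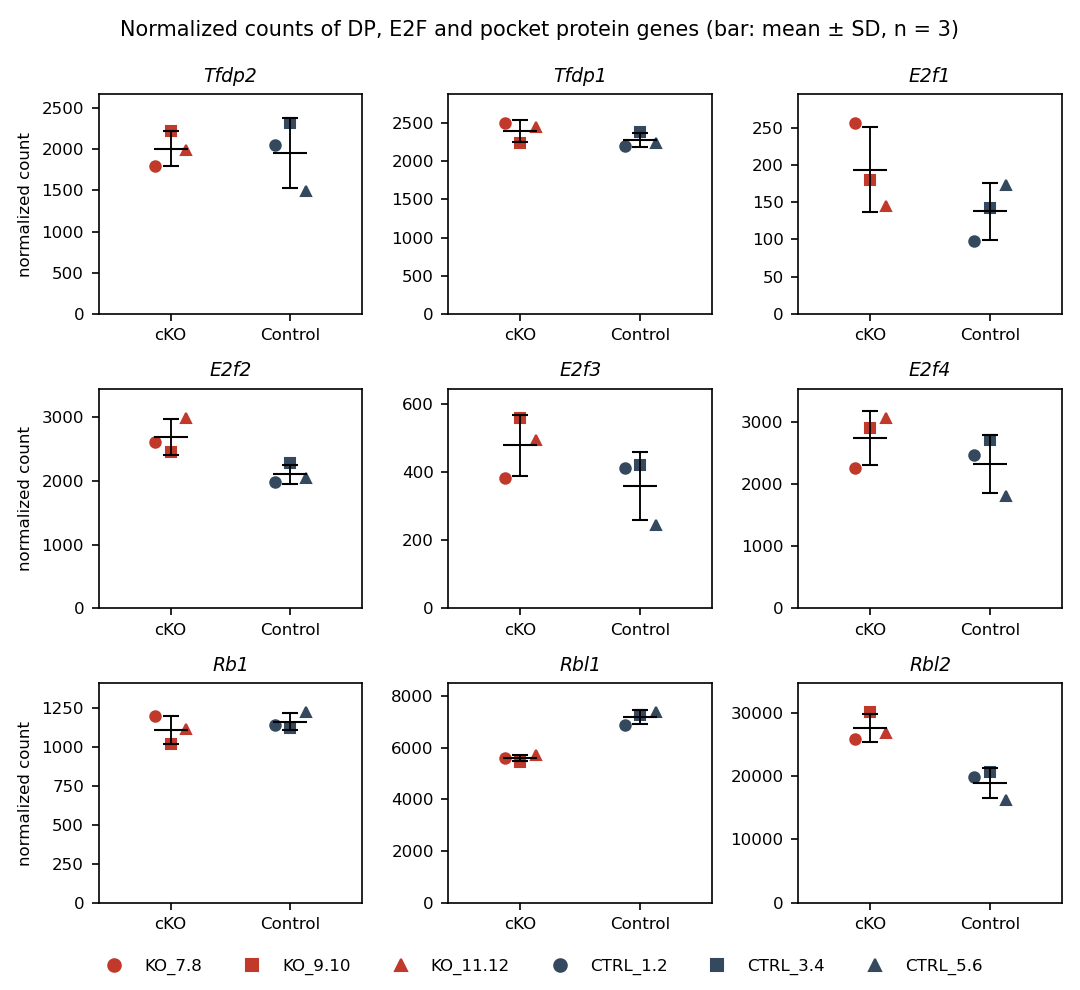
Normalized counts (y axis, from 0) of the 9 genes in each library, with cKO left of Control and bars for the mean ± SD of 3 libraries. Rbl2 and E2f2 are higher and Rbl1 is lower in every cKO library than in every Control library, while the other 6 genes overlap.

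**Figure D5:**
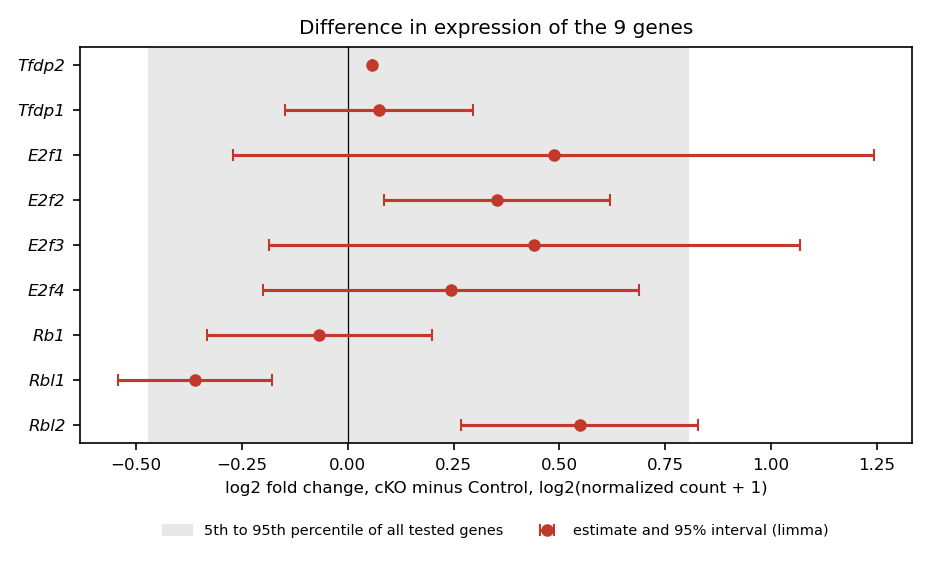
Log2 fold change, cKO minus Control, on the log2(normalized count + 1) scale (x axis) for the 9 genes (y axis), with the 95% interval by limma for all but Tfdp2 and the range from the 5th to the 95th percentile of all tested genes in grey (-0.47 to 0.80). The intervals of Rbl2, Rbl1 and E2f2 leave out 0.

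Set against the length of their exons, the mRNA levels of the 9 genes kept nearly one order. In cKO they ran from Rbl2 at 3645 ± 298 normalized counts per kb of exon through E2f4 at 1121 ± 176, Rbl1 at 933 ± 19.96, Tfdp1 at 653 ± 38.4 and E2f2 at 550 ± 56.3 to Rb1 at 185 ± 15.0, Tfdp2 at 143 ± 15.1, E2f3 at 88.3 ± 16.5 and E2f1 at 61.4 ± 18.1 (SD, n = 3 each). In Control the order was the same except that Rbl1, at 1198 ± 43.9 per kb, stood above E2f4, at 952 ± 190. In cKO the library ranges of E2f4 and Rbl1, of Tfdp1 and E2f2 and of E2f3 and E2f1 overlapped, and in Control those of E2f3 and E2f1. All annotated exons of a gene entered its length, which for Tfdp2 came to 14029 bases, so that a level is low where much of the annotation is not used.

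The genes whose levels ran most like Tfdp2 over the 6 libraries were Arl4d, Arl14ep, Nhlrc2, Zfp36l1 and Castor2, with Pearson's r on log2 values between 0.984 and 0.997. This likeness describes 6 libraries, and 261 tested genes had an r above 0.9. All 5 shared with Tfdp2 the lowest value in CTRL_5.6.

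Few genes around this network passed the test. CDK inhibitors restrain the kinases that release E2F, and of 7 listed 4 were tested and 1 passed higher. That gene was Cdkn1a, which encodes p21 and is a classic target of p53. Cdkn1a had 2081, 1564 and 1879 normalized counts in cKO, against 113, 94.8 and 60.4 in Control. The log2 fold change was 4.39 (SE 0.26, limma, adjusted p = 0.00137). Cdkn1b, which encodes p27, averaged 4028 ± 156 in cKO and 4886 ± 947 in Control (SD, n = 3 each).

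The cyclins and kinases that phosphorylate pocket proteins reached 0.32 as the median log2 fold change of 10 tested genes, against 0.01 over all tested genes, and 9 of the 10 were above 0. None passed by limma (3 had an unadjusted p under 0.05), none by edgeR, and DESeq2 gave Ccnd2 higher. Ccnd2, which encodes cyclin D2, averaged 75229 ± 3141 normalized counts in cKO and 59231 ± 5280 in Control, and its partner kinase Cdk6 averaged 5071 ± 557 in cKO and 3105 ± 960 in Control (SD, n = 3 each). The median of the list was 0.14 without KO_7.8. Leaving out that library also moved Ccna2 from 0.30 to -0.44 and Cdk1 from 0.23 to -0.55. Ccnd1, the largest of the list, went from 1.32 to 0.62.

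The E2F target genes, which encode replication, nucleotide and mitotic factors, held 48 tested members of 50. Their median log2 fold change was 0.01, the same as over all genes to 2 decimals, and 26 were above 0. None passed by limma (2 had an unadjusted p under 0.05) or by edgeR, and DESeq2 gave Pola2 lower. Pola2, a subunit of DNA polymerase alpha, had a log2 fold change of -0.30 (limma, adjusted p = 0.172), and Mcm5, of the replicative helicase, 0.55 (limma, adjusted p = 0.210). The cKO libraries did not move together: the list's median distance to the mean of Control was 0.41 for KO_7.8, against -0.19 and -0.16 for the other pair of cKO libraries, and without KO_7.8 the median log2 fold change was -0.18.

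The remaining lists held no gene past the test by limma or edgeR. Of 4 other E2F factors 2 were tested, and E2f6, a repressor that works without pocket proteins, averaged 146 ± 12.2 normalized counts in cKO and 252 ± 13.6 in Control (SD, n = 3 each), with a log2 fold change of -0.79 (limma, adjusted p = 0.120). E2f5, also tested and a factor that pocket proteins do bind, had a log2 fold change of -0.02. Of 9 genes of the MuvB core and its DREAM partners, which join p130 and E2F4 in resting cells, 6 were tested with a median of 0.03, and Lin37 averaged 5396 ± 288 in cKO and 4112 ± 227 in Control, with a log2 fold change of 0.39 (limma, adjusted p = 0.111), while that of Lin9 was -0.23. The unadjusted p was under 0.05 for 1 gene in each of these lists, and DESeq2 gave E2f6 lower and Lin37 higher. The 12 corepressors that bind pocket proteins had a median of -0.04 and none at an unadjusted p under 0.05. Kdm5a and Arid4a, the list's genes with the smallest p, had log2 fold changes of -0.22 and -0.15.

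Several of these genes are themselves known E2F targets, so their promoters were searched for the E2F motif in the letters TTTCCCGC, TTTCGCGC, TTTGCCGC and TTTGGCGC on both strands, from 250 bases before to 50 bases after the start, in the RefSeq promoter table (GRCm38.p6). Of 32851 such windows 2.26% held a match. This is a share of windows, while the members are counted by gene, and Tfdp1, Tfdp2, E2f2 and E2f3 have 2 windows each. Of the 7 genes with a window, Tfdp1, E2f2, E2f3 and Rbl1 had a match in at least 1, and Tfdp2, E2f1 and Rbl2 had none of these letters in theirs. The matches are shown in capitals with their surroundings, 5′ to 3′ on the strand of the gene, because they set Rbl1 beside the genes with other patterns of change.
Tfdp1 (chr8:13338697-13338726, plus strand): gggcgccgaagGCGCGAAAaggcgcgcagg
E2f2 (chr4:136172302-136172323, plus strand): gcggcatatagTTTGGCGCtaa
E2f3 (chr13:29986056-29986085, minus strand): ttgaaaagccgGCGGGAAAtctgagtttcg
Rbl1 (chr2:157204534-157204563, minus strand): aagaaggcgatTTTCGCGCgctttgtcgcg

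A match is a description of the letters and not of binding. Genes with a match lay on both sides, with E2f2 at a log2 fold change of 0.35 and Rbl1 at -0.36, and Rbl2, with no match, at 0.55.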

How the data were processed

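RNA-seq was made from 6 libraries, 3 cKO and 3 Control. The study aligned reads with STAR to GRCm38, counted them with featureCounts and normalized them with DESeq2. The deposited gene table holds these counts divided by size factors, a linear signal whose low values stepped in whole reads (100% of values within a tolerance of 0.01). The deposited splicing tables of rMATS hold read counts of the inclusion and skipping forms and their effective lengths. Columns of the authors' fold changes, p-values and FDR were not used.

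Genes were tested with limma (3.58.1, trend) on log2(normalized count + 1), and alternatives used edgeR (4.0.16) and DESeq2 (1.42.0) on the whole reads, a pseudocount of 10, no filter, quantile normalization and each library left out. Events averaging 20 or more reads in each group were tested by a quasi-binomial model, its dispersion moderated over those averaging 5 or more in the rarer form, and p was adjusted within a class. The methods of the study name 3 cKO and 3 control mice as the source of the RNA, and p measures the spread between these 6 libraries only.

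Named were the 9 genes, Cd2bp2, up to 4 genes per list past the test and otherwise the 2 of smallest p, and the 5 genes most like Tfdp2. Values of further genes were chosen after they were seen. The members and lists were chosen with earlier results of these data known. One gene of a marker list is not reported here and entered none of that list's values.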

Additional observations from a re-analysis of the deposited data

How the results depend on the processing

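No paired analysis was possible because the groups carry no shared replicate numbers in the labels. The 62 genes called by limma became 236 with DESeq2, and ranged from 26 to 71 with each library left out (26 without CTRL_1.2, 27 without CTRL_3.4, 34 without CTRL_5.6, 29 without KO_9.10, 27 without KO_11.12 and 71 without KO_7.8). The log2 fold changes of Rbl1 and Rbl2 passed an adjusted p of 0.05 by DESeq2 (-0.37, adjusted p = 6.3e-06, and 0.53, adjusted p = 0.00304) and in no other alternative, where the direction of all 8 tested genes was kept. The E2F targets past the test were 0 by limma and 1 by DESeq2. Of 194 cassette-exon and 24 mutually exclusive events called, 0 and 0 were left by limma on the logit scale, where 3202 and 981 had an unadjusted p under 0.05. With the dispersion prior taken over all events 371 cassette-exon events were called, and with a threshold of 5 points 71 mutually exclusive ones. With each value left out these counts ranged from 132 to 198 and from 17 to 29. The difference of the Tfdp2 67-base exon ranged from -37.32 to -27.44 points and that of its mutually exclusive event from 30.11 to 41.49. The cause of these changes was not tested.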
